A study of Sus scrofa and Bos taurus with 31 samples.

Results

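Regions of open chromatin at the starts of non-coding genes were examined in 8 tissues of the pig. Peaks of the 16 pig libraries that shared at least 1 bp were merged into regions, and a region was called open in a tissue when both pigs had a peak in it. The regions described here were chosen by position and by that measured presence of peaks: open in at least 1 tissue, within 2 kb of the transcription start site (TSS) of a non-coding transcript, and more than 2 kb from every TSS of a protein-coding transcript. There were 4854 such members among 284109 open regions, of 533944 merged regions in all. The other open regions were 23258 within 2 kb of a protein-coding TSS, called protein-coding starts, and 255997 near neither kind of TSS, called distal.

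ATAC-seq marks accessible chromatin, since its transposase inserts best where DNA is free of nucleosomes. Skeletal muscle, spleen, lung, liver, adipose (subcutaneous) and the brain tissues hypothalamus, cerebral cortex and cerebellum were each taken from P348 and P350, 2 castrated male Yorkshire littermates 6 months old. Both animals were littermates of 1 breed, and nuclei of whole tissue were used, so each list is a mixture of that tissue's cell types, in which fewer cells of a type and less open chromatin per cell cannot be told apart. The peak lists held 99960 to 217308 peaks per library and gave no read counts. The study's supplement lists read numbers per dataset, which were not used, so depth was not weighed here. Of 24 marker genes set for the 8 tissues, 23 had a peak within 2 kb of the gene body in both libraries of their own tissue, and for 13 of 24 the own tissue had the most peak bases. No 2 of the lists were alike (at most 0.311% of peaks had the same borders in 120 pairs of lists). The cerebellum stood apart with the longest lists, 217308 and 207917 peaks.

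Non-coding genes give RNAs that work without being translated. Long non-coding RNAs (lncRNAs) are made by RNA polymerase II from starts like those of protein-coding genes, and many are made in few cell types. MicroRNAs (miRNAs) are cut out of longer transcripts, so the start of the annotated hairpin is usually not where transcription begins, and they repress messages that match their seed. Transfer RNA (tRNA) genes are transcribed by RNA polymerase III from promoter elements inside the gene, among them the B box.

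The mature miRNAs below belong to genes with a member within 2 kb that come up again in the results. They are shown because their seeds, bases 2 to 8 in capitals, set which messages they bind. Each was read 5′ to 3′ from the Sscrofa11.1 assembly at its RefSeq position and is written as DNA.
miR-122 (MIR122, chr1:162329824-162329846, minus strand): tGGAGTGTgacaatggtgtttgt
miR-133a-3p (MIR133A-2, chr6:106998910-106998930, minus strand): tTGGTCCCcttcaaccagctg
miR-206 (MIR206, chr7:45976342-45976363, plus strand): tGGAATGTaaggaagtgtgtga
miR-9 (MIR9-1, chr4:93660437-93660459, plus strand): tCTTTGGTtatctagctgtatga
miR-124a (MIR124A-1, chr4:69968880-69968900, minus strand): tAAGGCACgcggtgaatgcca
miR-155-5p (MIR155, chr13:189138832-189138853, plus strand): tTAATGCTaattgtgatagggg
miR-21 (MIR21, chr12:36065284-36065305, plus strand): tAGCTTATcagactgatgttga
let-7i (MIRLET7I, chr5:27252807-27252825, plus strand): tGAGGTAGtagtttgtgct
miR-17-5p (MIR17, chr11:60734665-60734687, plus strand): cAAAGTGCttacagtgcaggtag
The 3 copies of miR-9 near members (MIR9-1, MIR9-2 and MIR9-3) carried 1 seed, and so did both copies of miR-124a and the 5′ arms near the miR-181 genes. No seed was shared among the 9 sequences printed.

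The windows below are the 300 bases around the middle of the strongest peak of 5 members. They were picked to show an lncRNA region open only in muscle, an lncRNA region open only in liver, a muscle miRNA region, a tRNA gene open everywhere and the region upstream of the MIR17 hairpin cluster. Each is written 5′ to 3′ on the strand of the non-coding gene, from the same assembly, with matches to the motifs named further on in capitals.
LOC110261213 (chr6:145096530-145096829, minus strand): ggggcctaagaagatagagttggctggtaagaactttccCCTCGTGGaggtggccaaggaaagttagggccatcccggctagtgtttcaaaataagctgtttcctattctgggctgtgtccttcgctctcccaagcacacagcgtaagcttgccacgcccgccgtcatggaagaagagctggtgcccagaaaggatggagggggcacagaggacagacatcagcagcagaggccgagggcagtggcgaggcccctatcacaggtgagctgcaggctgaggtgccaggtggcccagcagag
LOC102159032 (chr14:96513592-96513891, plus strand): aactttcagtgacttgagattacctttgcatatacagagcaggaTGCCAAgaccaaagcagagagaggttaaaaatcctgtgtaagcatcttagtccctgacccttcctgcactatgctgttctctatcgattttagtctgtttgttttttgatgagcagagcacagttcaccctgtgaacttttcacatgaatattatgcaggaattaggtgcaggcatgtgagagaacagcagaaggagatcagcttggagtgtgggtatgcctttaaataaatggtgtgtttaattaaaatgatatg
MIR133A-2 (chr6:106997829-106998128, minus strand): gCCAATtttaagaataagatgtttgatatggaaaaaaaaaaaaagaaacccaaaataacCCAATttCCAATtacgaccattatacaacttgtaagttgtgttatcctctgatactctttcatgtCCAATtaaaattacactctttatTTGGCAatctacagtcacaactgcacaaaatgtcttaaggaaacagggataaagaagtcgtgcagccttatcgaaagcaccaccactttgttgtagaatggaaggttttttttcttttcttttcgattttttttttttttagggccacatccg
TRNAL-CAA (chr2:52271842-52272141, minus strand): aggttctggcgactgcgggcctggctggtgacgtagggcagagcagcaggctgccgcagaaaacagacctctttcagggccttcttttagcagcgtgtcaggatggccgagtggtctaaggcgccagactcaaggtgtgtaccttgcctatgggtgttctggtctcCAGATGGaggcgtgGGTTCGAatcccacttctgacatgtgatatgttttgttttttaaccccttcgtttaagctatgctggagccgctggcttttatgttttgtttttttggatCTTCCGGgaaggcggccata
MIR17 (chr11:60732205-60732504, plus strand): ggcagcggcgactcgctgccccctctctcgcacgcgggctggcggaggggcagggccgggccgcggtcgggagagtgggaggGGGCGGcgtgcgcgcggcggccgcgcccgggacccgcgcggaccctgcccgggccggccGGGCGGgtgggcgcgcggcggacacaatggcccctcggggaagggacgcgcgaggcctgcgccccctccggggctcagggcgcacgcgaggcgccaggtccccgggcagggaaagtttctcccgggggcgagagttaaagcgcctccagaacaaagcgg
The muscle lncRNA window was 58.7% G and C, the liver one 40.3%, the MIR133A-2 window 33% and the tRNA window 53%. The MIR17 window was the richest of the 5, at 79.7% with 46 CpG dinucleotides. Capitals mark 1 CCACNAGG match in the first, 1 TTGGCA in the second, 4 CCAAT and 1 TTGGCA in the third, and 2 GGGCGG in the MIR17 window. In the tRNA window they mark 1 GGTTCGA, the B box, beside 1 CCGGAAG and 1 CAGATGG, and the gene's start was base 97.

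The kinds of non-coding gene were uneven. By the nearest non-coding TSS, lncRNA starts accounted for 4287 of 4854 members (88.3%), tRNA genes for 189, miRNA hairpins for 184 and non-coding transcripts of protein-coding genes for 135. Pseudogene transcripts accounted for 29 and other non-coding RNA for 30, and 33 members lay near starts of more than 1 kind. The lncRNA members belonged to 3332 genes, of which 2536 had 1 member and 796 had more, up to 9 for a single gene. Only 45 of those 3332 genes carried a name other than a LOC number, so nearly all of them are uncharacterised loci. Most members, 3660 (75.4%), lay outside protein-coding genes. A further 785 touched an intron only, and 409 overlapped an exon of a protein-coding transcript. A member on the mitochondrial genome, near a tRNA start, met the rule and was kept, although mitochondrial DNA carries no nucleosomes.

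Seen from the genes, the share of starts with an open region nearby differed by kind. Of the lncRNA starts more than 2 kb from a protein-coding TSS, 75.6% had an open region within 2 kb (4313 of 5704, 95% Wilson interval 74.5 to 76.7). The share was 64.3% for miRNA hairpins (180 of 280, 58.5 to 69.7), 59.5% for tRNA genes (264 of 444, 54.8 to 63.9) and 38.9% for pseudogene transcripts (28 of 72, 28.5 to 50.4). For protein-coding starts it was 89.6% (42215 of 47139). Fewer starts lay inside an open region: 40.2% of lncRNA, 41.7% of tRNA and 35.4% of miRNA starts, against 75.1% of protein-coding ones. A region open in all 8 tissues was found within 2 kb of 11.9% of lncRNA, 11.4% of miRNA and 24.5% of tRNA starts, and of 56.1% of protein-coding starts. These intervals cover counting error only, and neighbouring starts share regions. Any open region was counted, member or not. The share of arbitrary positions with an open region within 2 kb was not counted, so the shares within 2 kb have no background beside them.

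The profile around the starts showed where the open regions sat. Open regions covered 15.3% of the assembly. At lncRNA starts the share of positions inside an open region was 18.6% at 10 kb upstream, 34.7% at 250 bp upstream, 40.2% at the start and 41.2% at 250 bp into the gene. It was still 31.9% at 1 kb into the gene, against 21.5% at 1 kb upstream, so the profile leaned into the transcript. At tRNA genes it leaned the other way, with 26.6% at 1 kb upstream and 18.2% at 1 kb downstream around a value of 41.7% at the start. At miRNA hairpins the rise was smaller, from 25.6% at 1 kb upstream to 35.4% at the start and 23.2% at 1 kb downstream.

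**Figure D1:**
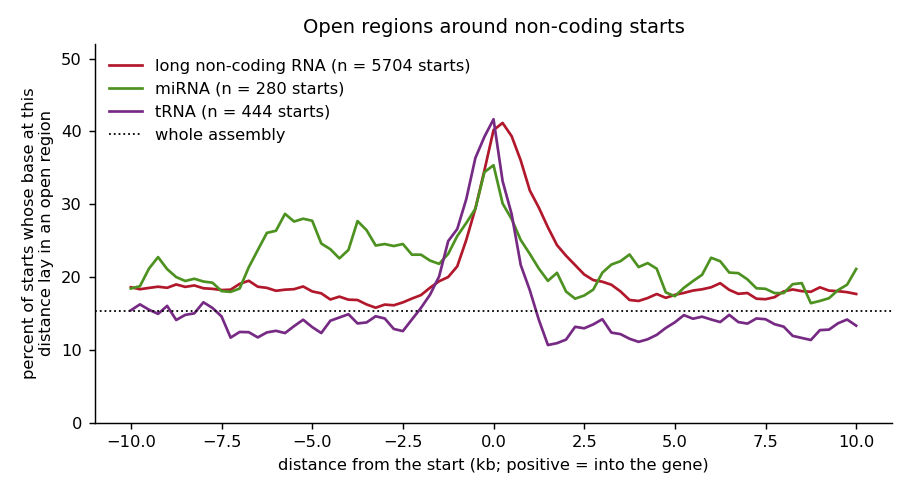
The y axis gives the percent of starts whose base at the distance on the x axis (kb, positive into the gene, steps of 250 bp) lay in an open region, for lncRNA, miRNA and tRNA starts more than 2 kb from a protein-coding TSS, and the dotted line is the whole assembly (15.3%). Every curve is highest within 250 bp of the start, at 41.2%, 35.4% and 41.7%, and the lncRNA curve falls more slowly into the gene than upstream.

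The tissue number of members lay between those of distal regions and protein-coding starts. Of the members, 1606 of 4854 (33.1%, Wilson interval 31.8 to 34.4) were open in 1 tissue and 508 (10.5%, 9.64 to 11.4) in all 8. Of all open pig regions, 47.1% were open in 1 tissue only and 5.92% in all 8. Between the ends, 768 members were open in 2 tissues, 560 in 3, 417 in 4, 382 in 5, 295 in 6 and 318 in 7, so the counts fell to 6 tissues and rose again toward 8. Distal regions were open in 1 tissue in 50.1% and in all 8 in 2.3% of cases, and protein-coding starts in 16.7% and 44.9%. The mean tissue number was 3.39 for members, 2.33 for distal regions and 5.48 for protein-coding starts.

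**Figure D2:**
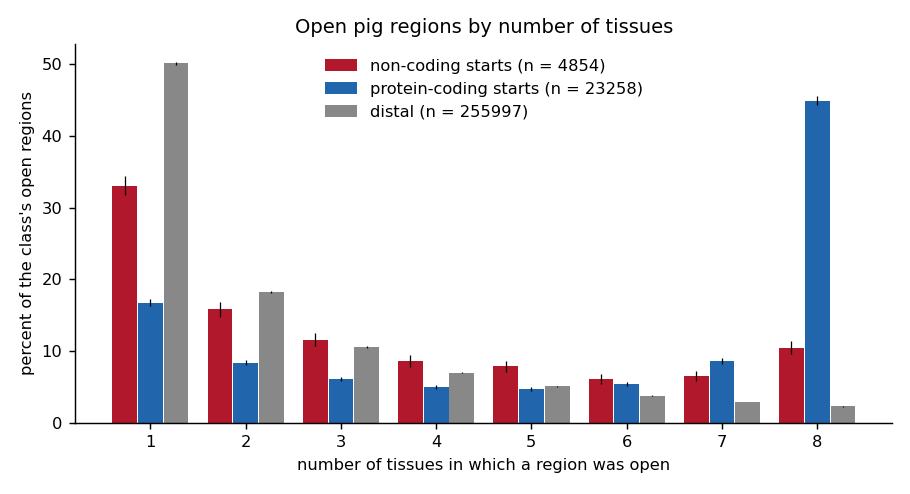
Bars give the percent of each class's open regions (y axis) by the number of tissues in which the region was open (x axis), with 95% Wilson intervals. Members near non-coding starts have their highest bar at 1 tissue (33.1%) and a smaller rise at 8 (10.5%), between the distal regions (50.1% and 2.3%) and the protein-coding starts (16.7% and 44.9%).

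Within a tissue, the share of open regions that were open in no other tissue was compared between classes. It averaged 9.56% ± 4.74 (SD, n = 8 tissues) for members, 19.4% ± 10.8 for distal regions and 3.03% ± 1.58 for protein-coding starts. Members were below distal regions in 8 of 8 tissues, with differences of -22.4 to -3.19 percentage points (mean -9.89, exact two-sided sign-flip permutation test over tissues, p = 0.0078, adjusted p = 0.0094 over 6 tests). They were above protein-coding starts by 2.21 to 13.2 points in 8 of 8 tissues (mean 6.53, exact permutation p = 0.0078, adjusted p = 0.0094), where p = 0.0078 is the smallest that 8 tissues allow. All tissues came from the same 2 animals and a region's tissues enter together, so these tests measure only the spread between tissues. Among regions up to 1 kb wide the difference from distal regions was -9.91 points. With regions inside protein-coding genes left out, the difference from protein-coding starts turned to -7.61 points. That setting cut the classes unequally: 93.5% of protein-coding starts overlapped a protein-coding gene, against 24.6% of members, and 1520 protein-coding starts remained. The control in it was thus not the same set.

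**Figure D3:**
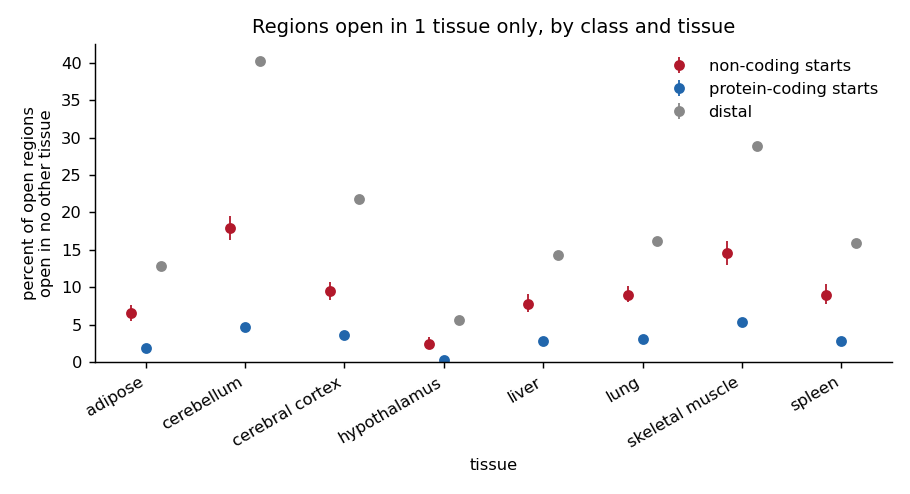
Points give, for each tissue (x axis), the percent of a class's open regions that were open in no other tissue (y axis), with 95% Wilson intervals. Members near non-coding starts lie below distal regions and above protein-coding starts in all 8 tissues, and the gap to distal regions is widest in cerebellum (17.9% against 40.2%).

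The members open in 1 tissue were unevenly spread over the tissues. Cerebellum, which had the longest lists, held 378 of the 1606 (23.5%, Wilson interval 21.5 to 25.7), skeletal muscle 280 (17.4%), lung 242 (15.1%) and cerebral cortex 221 (13.8%). Liver held 161, spleen 159, adipose 126 and hypothalamus 39 (2.43%). Among all regions open in 1 tissue, cerebellum held a larger share, 34.7%, and the shares of others were 15.5% for skeletal muscle, 15.3% for cerebral cortex, 12.5% for lung and 2.26% for hypothalamus. Put as members per 100 regions open in a single tissue, the value was 0.814 in cerebellum, 1.08 in cerebral cortex, 1.29 in hypothalamus, 1.35 in skeletal muscle, 1.44 in lung, 1.55 in adipose, 1.67 in liver and 1.84 in spleen. The 3 brain tissues were thus the lowest 3 in this order, which was not tested. Hypothalamus rested on only 39 members. The Wilson interval of its 2.43% share (1.78 to 3.3) held its 2.26% among all regions. Whether its place below skeletal muscle (1.29 against 1.35) exceeds counting error was not tested. A member open in a single tissue could still have a peak in 1 pig of another tissue. Of the 1606, 519 (32.3%) had no peak in any of the other 14 libraries. That share was 38.8% for distal regions and 39.7% for protein-coding starts open in 1 tissue.

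**Figure D4:**
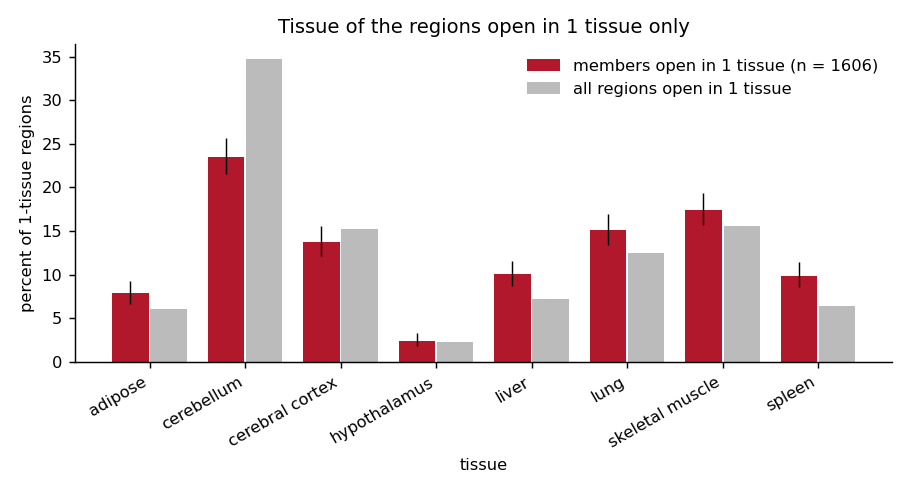
Red bars give the percent of the 1606 members open in 1 tissue that fell to each tissue (x axis), with 95% Wilson intervals, and grey bars the same for all regions open in 1 tissue. Cerebellum is the highest in both, with 23.5% of members against 34.7% of all regions.

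The share of all peaks that fell in members was lower in brain. Per library it ran from 1.16% (cerebellum of P348) to 2.19% (liver of P348). The mean of both animals was 1.31% in cerebellum, 1.85% in cerebral cortex and 1.83% in hypothalamus, against 1.84% in lung, 1.94% in adipose, 2.06% in skeletal muscle, 2.13% in liver and 2.16% in spleen. The brain mean was 1.66% ± 0.308 (SD, n = 3 tissues) and the mean of the others 2.03% ± 0.132 (n = 5), a difference of -0.362 points (exact two-sided permutation test over 56 choices of tissues, p = 0.036, adjusted p = 0.036). Members were chosen by peaks that both pigs had in these same libraries, while the share is of all peaks, including those of 1 pig. It thus draws on values the rule used, so the p is not independent of that choice. How far the share moves with the agreement of the pigs was not tested. Cerebral cortex lay inside the range of the other tissues, and without cerebellum the difference was -0.185 points (exact permutation p = 0.19). Permuting within each animal, the replicate block, gave the same difference (exact permutation p = 0.0057). That low p treats the 2 libraries of a tissue as free to move apart. Open in brain tissues only were 816 members (16.8%), against 31.4% of distal regions, and 2547 (52.5%) were open both in and outside the brain.

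Members open in exactly 2 tissues were spread over all 28 pairs. The most frequent pairs were cerebellum with lung (68 of 768, 8.85%), cerebellum with cerebral cortex (64), adipose with lung (57) and liver with lung (49). There were 28 members (0.577%) open in all 3 brain tissues and nowhere else, against 0.745% of distal regions. Another 14 (0.288%) were open in all 5 of the other tissues and in no brain tissue, against 0.159% of distal regions.

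Peaks in members were wider than distal ones but hardly higher. Fold enrichment is the signal of a peak over the local background, averaged over the whole broad peak by the authors' caller. The median fold of member peaks ran from 2.74 to 3.95 over 16 libraries and that of distal peaks from 2.74 to 3.92. Members had the higher median in 14 of 16 libraries, by little. The mean log2 difference was 0.04 (a ratio of 1.03), above 0 in 8 of 8 tissues (exact two-sided sign-flip permutation p = 0.0078, adjusted p = 0.0094). This did not hold under stricter settings: at q of 0.0001 or less it was -0.00975, and at q of 0.01, with lists of equal length, up to 1 kb and outside coding gene bodies it lost its call. The median of member peaks was below that of protein-coding starts in 16 of 16 libraries. The median peak width per library was 492 to 754 bp in members and 372 to 637 bp in distal regions. Peaks of both pigs met more often: over all merged regions near a non-coding TSS, open or not, 60.4% ± 7.5 (SD, n = 8 tissues) of those with a peak in either pig had one in both, against 45.6% ± 8.95 of distal regions. This agreement was higher by 9.98 to 18.5 points in 8 of 8 tissues (mean 14.8, exact permutation p = 0.0078, adjusted p = 0.0094). Member regions were wider (median 1404 bp, against 1115 bp for distal regions), and among regions up to 1 kb wide the gap was 8.62 points.

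Distance from the start went with tissue number. The 2119 members that held a non-coding TSS were open in 4.24 tissues on average, and 17.5% of them in all 8. The 772 at 1 to 500 bp averaged 2.97 tissues, the 645 beyond that and up to 1000 bp 2.73, and the 1318 farther out 2.60, of which 44.4% were open in 1 tissue. At the border of the rule, the 632 members at 1.5 to 2 kb were open in 1 tissue in 47.5% of cases and the 764 regions at 2 to 2.5 kb, just outside, in 45.3%. Distance to protein-coding genes moved with it too: 17.6% of the 699 members at 2 to 10 kb from a protein-coding TSS were open in all 8 tissues, 12.9% of the 1882 at 10 to 50 kb and 6.25% of the 2273 farther away. Width went with tissue number as well: of members up to 1 kb wide, 62.8% were open in 1 tissue and 4.25% in all 8. A wide merged region also holds a start more easily, and the part of width in the order by distance was not tested.

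Among the kinds, tRNA members were open in the most tissues, 4.56 on average, against 3.33 for both lncRNA and miRNA members. Of the 189 tRNA members, 55 (29.1%, Wilson interval 23.1 to 35.9) were open in all 8 tissues, compared with 409 of 4287 lncRNA members (9.54%, 8.7 to 10.5) and 13 of 184 miRNA members (7.07%, 4.18 to 11.7). The 1-tissue share was 24.3% for tRNA, 31.5% for miRNA and 33.6% for lncRNA members. Within tissues it was higher at lncRNA than at small RNA (tRNA, miRNA) starts by 0.418 to 11.9 points, in 8 of 8 tissues (mean 3.16, exact two-sided sign-flip permutation p = 0.0078, adjusted p = 0.0094). The 2 largest gaps were in cerebellum (19.1% against 7.14%) and spleen (9.49% against 4.95%), and 3 tissues (cerebral cortex, lung and skeletal muscle) had gaps under 1 point. The small RNA side rested on few 1-tissue members, from 1 in hypothalamus to 27 in skeletal muscle, so the smaller gaps hang on single regions. Without cerebellum the mean gap was 1.90 points (exact permutation p = 0.016). With P350 alone deciding what was open, the mean was 0.468 points and the exact permutation p 0.68.

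Members at tRNA genes split by whether the gene itself lay in the region. In the 123 members that held the start of a tRNA gene, 54 (43.9%) were open in all 8 tissues and 16 (13%) in 1. In the 66 that only lay near one, 1 was open in all 8 and 30 (45.5%) in 1. Members with 2 or more tRNA starts within 2 kb were open in all 8 tissues in 31 of 59 cases (52.5%), and those with a single start in 24 of 130 (18.5%). Width moved with both: the median was 1719 bp with the start inside against 1096 bp, and 1855 bp with 2 or more starts against 1406 bp, and its part in the result was not tested. Chromosome 7 carried 44 of the 189, and chromosomes 3 and 12 carried 17 each. By amino acid, an open region lay within 2 kb of 15 of 16 proline, 10 of 11 tyrosine and 25 of 32 lysine tRNA starts, and of 10 of 30 glycine and 13 of 36 alanine starts. The 64 glutamate starts, the largest group, had 35. Many tRNA genes have near-identical copies, so the peaks at single copies are uncertain. Of the tRNA members open in all 8 tissues, the one with the highest fold in its weakest library held TRNAL-CAA, a leucine tRNA gene on chromosome 2 (region chr2:52271581-52272653). Its fold ran from 6.88 in adipose of P348 to 12.1 in liver of P348, and all 16 libraries had a peak.

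The tissues of the 1-tissue members were also counted by kind. Of 58 such miRNA members, 20 were open in skeletal muscle (34.5%, Wilson interval 23.6 to 47.3), 12 in lung, 6 each in liver and cerebral cortex and 0 in hypothalamus, the last with a Wilson upper bound of 6.21%. Skeletal muscle held 17.4% of all 1-tissue members, and 19 of the 47 (40.4%, 27.6 to 54.7) at non-coding transcripts of protein-coding genes. Of the 46 tRNA members open in 1 tissue, 13 (28.3%, 17.3 to 42.5) were open in cerebral cortex. That tissue held 13.8% of all 1-tissue members. Of the 1439 lncRNA members open in 1 tissue, 362 (25.2%) were open in cerebellum and 232 (16.1%) in skeletal muscle. Lung had 219 (15.2%) and cerebral cortex 196 (13.6%). Among all 1-tissue members these tissues held 23.5%, 17.4%, 15.1% and 13.8%, near the lncRNA shares. No test was made between kinds here.

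Lists of miRNAs known for a tissue were then followed through the libraries. Of 61 hairpin genes on the lists, 41 had a member within 2 kb, 4 lay by an open region of a protein-coding start, 5 had regions that no tissue opened in both pigs and 11 had no region. Nearby hairpins shared regions, so the 41 genes had 46 members. Of the 46 genes listed for a tissue, 35 had a member, which was open in the listed tissue for 32 and in no other tissue for 3. Of all members, 32.9% to 55.6% were open in a given tissue and 69.3% in any brain tissue, and a gene with 2 members counted as open where either was. The 3 were MIR133A-2 in muscle, MIR181A-1 in spleen and MIR129A in brain, where it was open in cerebellum and cerebral cortex. On the lung list, the MIR126 region was lowest in lung (1.8 and 1.74). Its other peaks had 1.82 to 3.2. On the adipose list, MIR143 and MIR145 shared a region open in all 8 tissues. That region had 2.07 and 1.94 in adipose and 2.1 to 5.02 elsewhere. MIR27B was not open in adipose. At MIR335 adipose had 2.91 and 3.61, against 2.61 and 2.42 in lung.

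In muscle, MIR133A-2, a hairpin expressed with muscle differentiation, had 2 members in an intron of MIB1. The member at chr6:106996837-106998459, 512 bp from the hairpin, had a fold of 4.94 in P348 and 4.15 in P350. The one at chr6:107000012-107000411 had 4.03 and 5.45. Neither had a peak in the other 14 libraries, so both were open in muscle alone. The region over MIR206 (chr7:45974759-45977989), another muscle miRNA, was different: its fold was 2.22 and 2.63 in muscle and 2.36 to 2.98 in the 9 other libraries that had a peak. Muscle did not stand out there. At MIR133A-1 the larger member was open in 6 tissues, with 1.7 and 1.71 in muscle and up to 5.44 in liver of P348, and the smaller one was open in muscle alone, with 1.69 and 1.52, below a peak of 2.27 in cerebellum of P350.

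For liver, MIR122, the most abundant hepatocyte miRNA, had 2 members. The one at chr1:162325560-162328899 was open in liver (3.13 and 3.46) and adipose (2.73 and 2.48). The other, chr1:162331135-162331671, had no liver peak and was open in spleen (6.83 and 4.6) and lung (3.0 and 3.11). The hairpins of MIR192 and MIR194A shared a member with 5.39 and 3.59 in liver and 1.87 and 2.15 in muscle. A second member near both was open in muscle alone, with 2.03 and 2.05 beside a peak of 2.23 in adipose of P348. Liver was thus highest at 2 of these 4 members and without a peak at the other 2.

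Regions near brain miRNAs were mostly open outside the brain as well, as was usual for members. Of all members, 3363 were open in a brain tissue, and 2547 of these were open outside it too. Of 18 listed genes 15 had a member, open in a brain tissue for 13, in brain alone for 1 and in all 8 tissues for 3 (10.5% of all members were open in all 8). Of the last 3, MIR132 and MIR212 shared a region. The region over MIR9-1, a miRNA of neural progenitors (chr4:93658789-93661175), was open in every tissue, with 7.87 and 8.85 in hypothalamus, 5.13 and 4.93 in cerebellum and 4.33 and 4.7 in cerebral cortex. The 10 libraries outside the brain had 2.64 to 4.49, and liver overlapped cerebral cortex. The region over MIR124A-1, a neuronal miRNA, was highest in liver of P348 (4.87), with 2.71 to 3.63 in the 6 brain libraries and no peak in muscle. MIR128-1 lay within a member open only in liver (5.91 and 4.1), with no peak in the 14 other libraries. Fold depends on the background of each library, so these values order tissues only roughly.

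Of 11 blood cell miRNA genes 7 had a member, and each had one open in spleen, where 36.5% of all members were open. These genes shared regions: MIR181C and MIR181D both of theirs, and MIR181A-1 and MIR181B-1 one. The MIR181C and MIR181D region at chr2:65280620-65282586 was lowest in spleen (2.39 and 2.41), with 3.33 and 3.56 in cerebral cortex. Their second region was open in liver alone (2.77 and 3.12). The region shared by MIR181A-1 and MIR181B-1 was open in spleen alone (4.2 and 4.62). The second region near MIR181B-1 had 3.56 and 2.78 in spleen and 3.48 and 2.52 in cerebral cortex. The region over MIR155 (chr13:189137766-189138994), a miRNA of activated lymphocytes and macrophages, had a fold of 6.37 and 5.89 in spleen. It had 3.03 to 4.11 in liver, lung and cerebral cortex and no peak in the other 8 libraries. A second member, 1982 bp from the hairpin, was open in spleen alone (4.33 and 2.85). At MIR146A the spleen values were 5.17 and 5.56, above 2.74 to 4.05 in the 6 other libraries with a peak. At MIR142, whose hairpin marks blood cells, spleen had 3.79 and 3.99 and liver of P348 3.68, so the libraries nearly met.

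Of 15 broadly used miRNA genes 6 had a member, which was open in all 8 tissues for 5, of which MIR17 and MIR92A-1 shared a region. Another 3 had regions not open in both pigs and 6 had none. Of all members 10.5%, and of miRNA members 7.07%, were open in all 8 tissues. The region over MIRLET7I ran from 3.96 to 5.13 over 16 libraries and the region upstream of MIR17, the first hairpin of an oncogenic cluster, from 3.62 to 5.44. The region near MIR92A-2 ran from 2.83 to 5.28. The region near MIR21 differed more: 7.3 and 8.32 in liver, 6.42 and 7.35 in spleen, 3.79 and 3.33 in adipose, no peak in cerebellum and 1 peak (3.19) in hypothalamus. MEG3, an imprinted lncRNA, was the only gene of a list of known lncRNAs and structured RNAs matched by symbol. It had a member over its start (chr7:121654113-121656671). Its fold was 7.24 and 10.1 in skeletal muscle and 2.2 to 4.21 in the 12 other libraries with a peak. Muscle was above every other library there, and liver of P348 and spleen of P350 had no peak. A second member, 1956 bp from the start, was open in lung alone (2.16 and 2.7), with peaks of 2.43 in cerebral cortex of P350 and 2.53 in liver of P350.

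**Figure D5:**
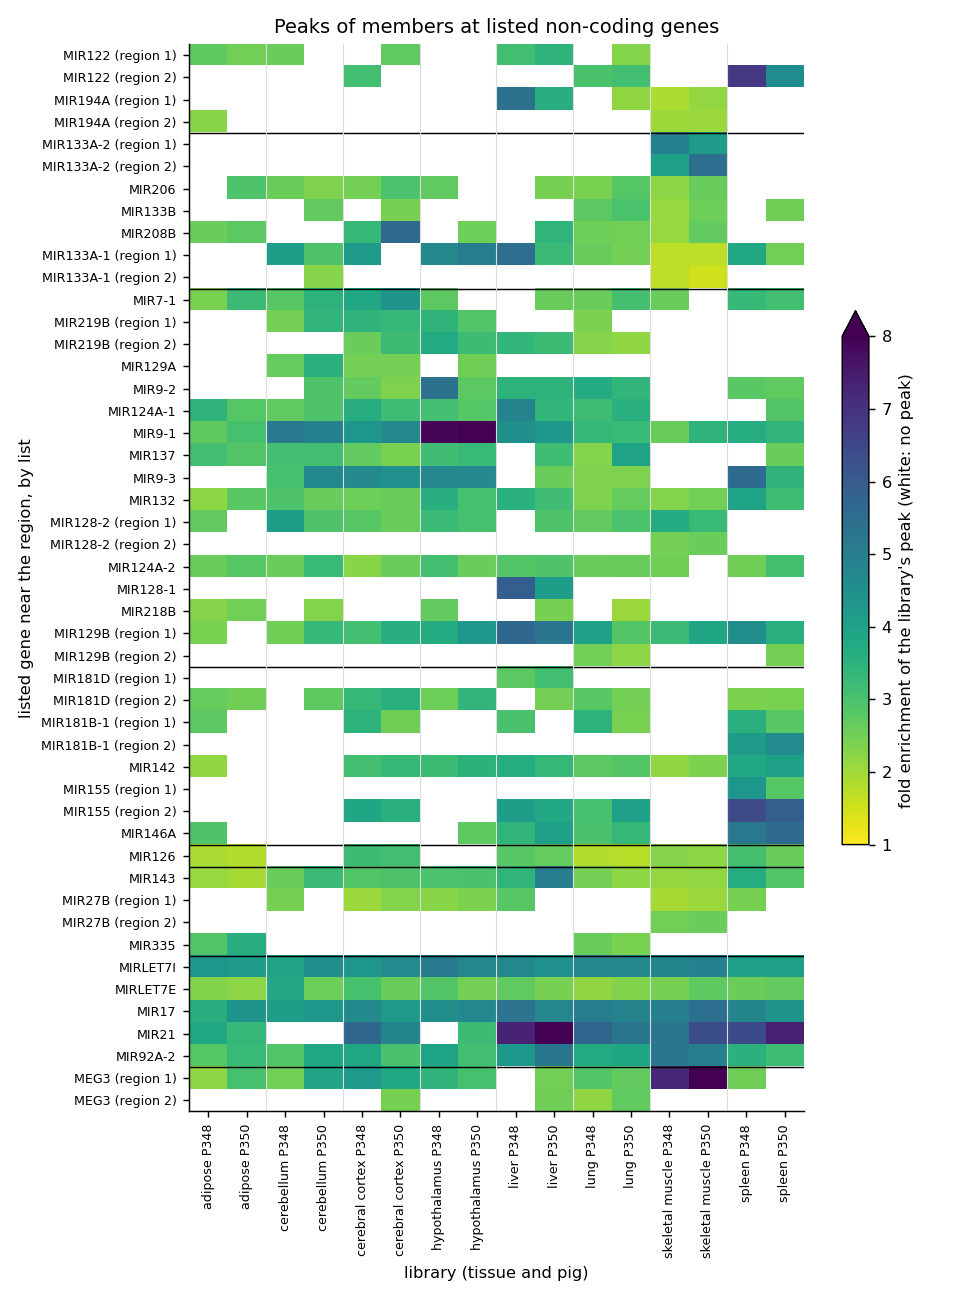
Each row is a member within 2 kb of a listed gene (46 near miRNA hairpins, then 2 near MEG3), each column a library, and the colour gives the fold enrichment of that library's peak from 1 to 8 or more, with white for no peak. Rows of the muscle list differ from each other: both MIR133A-2 regions are filled in muscle only, while the MIR206 region is filled in 11 libraries.

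The member of each tissue with the highest fold in its weaker animal, among members open nowhere else, was an uncharacterised lncRNA region in all 8 tissues. The highest was at LOC110261213 in skeletal muscle (chr6:145096432-145096927, 299 bp from the TSS), with 13.2 and 13.4, a peak in adipose of P350 (3.45) and in lung of P350 (3.25), and none in 12 libraries. In liver it was LOC102159032 (chr14:96513545-96513939, 561 bp from the TSS), with 11.1 and 10.4 and a single other peak (3.16, cerebellum of P348). In cerebellum LOC106506104 had 7.64 and 8.07 and in spleen LOC106505035 had 5.71 and 5.65, both with no peak elsewhere. In lung LOC102165694, whose TSS lay in the region, had 6.43 and 6.55, with a peak of 2.48 in cerebellum of P348. Cerebral cortex had LOC106505786 (6.5 and 7.26), inside an intron, with peaks in cerebellum of P350 (3.88) and hypothalamus of P350 (3.68). In hypothalamus it was LOC106509117 (5.86 and 5.05), which also had a peak of 5.85 in cerebral cortex of P350. The adipose example, LOC110259865, was the weakest, with 3.94 and 3.53 and peaks in 1 animal of 4 other tissues. These were picked for their folds, which are therefore a description. The medians of the weaker animal's fold over the 1-tissue members of a tissue were 2.55 in adipose, 2.56 in lung, 2.6 in cerebellum, 3.44 in liver and 3.5 in skeletal muscle.

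Of the members open in all 8 tissues, the highest in its weakest library was LOC100519283 (chr18:32644183-32645008), an lncRNA whose TSS lay in the region, with 8.57 in cerebellum of P348 to 17.9 in skeletal muscle of P350. The other kinds gave lower examples. MIR7143 (chr9:27304967-27307129) had 4.2 to 12.3. A non-coding transcript of CCDC83 had 5.71 to 14.4, with the nearest protein-coding TSS, of the same gene, 2088 bp away. A pseudogene transcript, LOC102167305, annotated as similar to a zinc finger gene, had 7.14 to 11.0, and a transcript of PCNX4 listed as other non-coding RNA had 6.87 to 11.7. All 16 libraries had peaks in each of them.

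Base composition changed with tissue number. In the 300 bases around the strongest peak, members open in 1 tissue had a median of 49.7% G and C, and those open in all 8 had 61%, against 47.7% and 57.3% for distal regions and 51% and 68.3% for protein-coding starts. The ratio of observed to expected CpG was 0.256 in 1-tissue and 0.664 in 8-tissue members. In 8-tissue distal regions it was 0.389 and in 8-tissue protein-coding starts 0.845. The 13 miRNA members open everywhere had a median G and C content of 70.3%, while the 55 tRNA members open everywhere had 55%. Repeats, where reads map poorly, were counted too: 4.86% of member windows were masked over at least 50% of their length, against 10.9% of distal windows.

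Short motifs were counted in the same windows on both strands. Promoter elements were searched as TATAAA for the TATA box, as CCAAT for the CCAAT box and as GGGCGG for the GC box bound by Sp factors. Widely used factors were searched as CCGGAAG for ETS factors, as TGACGTCA for CRE, as TGANTCA for AP-1 and as CCACNAGG for the CTCF core. Factors with roles in particular tissues were searched as TGTTTAC for FOX, as CAAAGTCCA for HNF4, as CTAAAAATA for MEF2, as CAGATGG for the neural E-box and as GAGGAAGT for PU.1. The letters TTGGCA stood for NFI, the palindrome TTGCGCAA for CEBP and the letters GGTTCGA for the B box of tRNA genes. The ETS and PU.1 letters overlap in GGAAG, and a CCAAT read on the other strand can overlap TTGGCA. The GC box was found in 22.8% of member windows, 14.6% of all open regions and 50% of protein-coding starts, and rose from 11.3% of 1-tissue to 51.4% of 8-tissue members. ETS letters went from 1.87% to 11.6%, next to 2.52% of all open regions. The TATA box went down, from 11.7% to 6.1%, beside 11.7% of all open regions. The B box letters were in 15.9% of tRNA members, 1.56% of lncRNA members and 1.74% of all open regions. Among 1-tissue members, PU.1 letters were in 14 of 159 spleen windows (8.81%, 6.91% of all spleen-only regions), MEF2 letters in 6 of 280 muscle windows (2.14%, 2.65%), HNF4 letters in 3 of 161 liver windows (1.86%, 2.2%) and FOX letters in 15 of 242 lung windows (6.2%, 5.21%). FOX letters were in 6 of 161 liver windows (3.73%, 7.93%) and HNF4 letters in 4 of 242 lung windows (1.65%, 0.43%). These counts are small, and no test was made. A match of letters is not a bound site.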

How the data were processed

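ATAC-seq peak lists of 16 pig libraries (8 tissues, 2 animals) were used; the cattle lists of the series and the deposited peak score column were not used. The authors called broad peaks per library with MACS2 2.1.1 at a q of 0.05. Per the labels, Trim Galore 0.4.5, BWA 0.7.17, SAMtools 1.10 and Picard 2.18.17 were also used, and the genome was susScr11 (Sscrofa11.1). The alignment steps are described for ChIP-seq, and whether ATAC-seq reads were shifted is not given in the sources used here. Fragments of 150 to 250 bp were selected, which favours short fragments. Each deposited peak carries a fold enrichment over the local background and a -log10 p-value and -log10 q-value, all averaged over the broad peak, so that 1.54% to 16.3% of the peaks of a list have a mean q above 0.05. Depth per library is not given in the lists and was not taken from the study's supplement. The lengths of the lists (99960 to 217308 peaks) limit what could be seen.

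Peaks were merged across the 16 lists and classed by edge distance (2 kb) to the TSS of coding and non-coding transcripts in NCBI Annotation Release 106, where the study used Ensembl 99. Sequences were read from that RefSeq assembly. Differences were tested over 8 tissues with exact two-sided sign-flip tests, or exact permutation of tissues, and 6 p-values were adjusted by Benjamini-Hochberg. Shares carry 95% Wilson intervals, which cover counting error only. Scripts (Python 3.11.15, pandas 2.3.3, NumPy 2.4.6, SciPy 1.17.1) were tested on simulated data. Alternatives changed the q limit, merging, the rule for open, the animals, the TSS distance, region width, sequences, list length, transcripts and tissues.

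Named members were those within 2 kb of a listed gene (wider than the rule first set, which took only members nearest to one), the member open in a single tissue with the highest fold in its weaker animal, and, per kind, the member open in all 8 tissues with the highest fold in its weakest library. The members and lists were chosen with earlier results of these data known. The animals are littermates and both served every tissue, so p-values measure the spread between tissues only.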

Additional observations from a re-analysis of the deposited data

How the results depend on the processing

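Of 163 values recomputed under other settings, 123 kept their direction, side of the threshold or size and 2 reversed. The 1-tissue share of members against distal regions kept its direction and call in all 21 settings (-13.1 to -7.72 points), and the agreement of the animals in all 18 (8.62 to 21.1). Against protein-coding starts the 1-tissue share reversed to -7.61 outside protein-coding gene bodies, where 1520 of 23258 protein-coding starts were left, so the control was not the same set. The cause of the other changes was not tested.

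Members numbered 2423 at q of 0.0001 or less, 7324 when a peak in either animal sufficed, 2957 at a TSS distance of 500 bp and 1554 among regions up to 1 kb wide. Their 1-tissue share was 41.1% at q of 0.01, 46.8% at q of 0.0001, 31.5% with peaks closer than 500 bp merged, 29.7% with either animal, 25.3% at 500 bp, 62.8% up to 1 kb, 37.8% with lists of equal length, and 30.2% to 33.4% with a single animal. The 8-tissue share was 8.64% at q of 0.01, 5.57% at q of 0.0001, 13.5% with either animal, 14.8% at 500 bp, 11.6% from midpoints, 4.25% up to 1 kb and 9.33% with equal lists.

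The log2 fold difference from distal regions reversed to -0.00975 at q of 0.0001 and lost its call at q of 0.01 (0.0163), up to 1 kb (0.0309), with equal lists (0.0242) and outside coding gene bodies (0.0421). The brain difference lost its call at q of 0.0001 (-0.382), from midpoints (-0.311), up to 1 kb (-0.0747), on autosomes (-0.355) and outside gene bodies (-0.225). It did so too without adipose (-0.384), cerebellum (-0.185), hypothalamus (-0.446), liver (-0.337), skeletal muscle (-0.354) or spleen (-0.329), and kept it without lung (-0.408) or cerebral cortex (-0.456). With a single animal it was -0.386 (P350) to -0.342 (P348), and it lost its call with P348 alone. The lncRNA against small RNA difference lost its call with either animal (0.326) and up to 1 kb (5.36), and was 0.468 to 1.31 with a single animal and 1.90 without cerebellum. With the animal as a replicate block the brain difference was -0.362 (exact permutation p = 0.0057). That p treats the 2 libraries of a tissue as free to move apart and is too low, and the exact permutation over tissues gave p = 0.036. Both draw on the peaks that chose the members. The other tests are already within tissue.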
